A study of Mus musculus with 6 samples.

Results

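The genes described are 9 components of the tight junction, taken by name: the claudins Cldn5 and Cldn12, occludin (Ocln), tricellulin (Marveld2), the angulin Lsr, the junctional adhesion molecules F11r and Jam2, and the cytoplasmic plaque proteins Tjp1 and Cgn. They were read from a table of 56748 mouse genes, and all 9 were among the 16162 genes with enough reads to test. The tissue was homogenized mouse brain, and the samples were polyadenylated RNA libraries prepared 3 and 28 days after MCF10DCIS cells had been implanted in a mouse intraductal model, 3 libraries at each time. MCF10DCIS is a human breast line that forms lesions like ductal carcinoma in situ, and here it carried CD63-NLuc, a vesicle membrane protein joined to a light-producing enzyme. Every mouse had received these cells, so both groups share the implant and the labelled CD63, and no unimplanted brain served as a control here. The labels give no strain, sex or age and do not say whether a library was 1 animal, so p-values reflect only how these samples vary, which could be technical.

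Tight junctions seal the space between neighbouring endothelial or epithelial cells. Claudins and occludin span the membrane, tricellulin and the angulins hold the points where 3 cells meet, junctional adhesion molecules bind across the gap, and plaque proteins such as zonula occludens 1 (Tjp1) and cingulin (Cgn) tie them to actin. In brain they close the capillary endothelium that forms the blood-brain barrier, where Cldn5 is the leading claudin, and the epithelium of the choroid plexus. Several members are also made by other brain cells and, outside the brain, by liver.

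Promoters are shown for the 3 genes on which the results turn most: Lsr, with the largest difference between the times, F11r, with the next largest, and Cldn5, which varied widely between libraries of 1 time. Each is the 300 bases from 250 before to 50 after a gene start, 5′ to 3′, from RefSeq on GRCm38.p6. Capitals mark matches, on either strand, to a GC box, a TATA box or an ETS, TCF/LEF or HNF4 motif, whose letters follow below the sequences.
Lsr, chr7:30973420-30973719, minus strand: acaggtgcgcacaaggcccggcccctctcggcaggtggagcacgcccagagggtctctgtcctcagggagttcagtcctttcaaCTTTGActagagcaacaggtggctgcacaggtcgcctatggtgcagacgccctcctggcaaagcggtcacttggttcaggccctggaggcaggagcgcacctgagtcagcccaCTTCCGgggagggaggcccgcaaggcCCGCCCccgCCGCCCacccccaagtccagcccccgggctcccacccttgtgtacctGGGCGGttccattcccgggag
F11r, chr1:171437311-171437610, plus strand: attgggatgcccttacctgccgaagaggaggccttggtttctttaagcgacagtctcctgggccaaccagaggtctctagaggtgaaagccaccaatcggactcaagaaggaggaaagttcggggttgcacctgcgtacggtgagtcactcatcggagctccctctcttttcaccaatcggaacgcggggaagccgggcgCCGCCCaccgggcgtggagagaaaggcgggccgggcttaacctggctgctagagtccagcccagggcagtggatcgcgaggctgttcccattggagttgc
Cldn5, chr16:18776597-18776896, plus strand: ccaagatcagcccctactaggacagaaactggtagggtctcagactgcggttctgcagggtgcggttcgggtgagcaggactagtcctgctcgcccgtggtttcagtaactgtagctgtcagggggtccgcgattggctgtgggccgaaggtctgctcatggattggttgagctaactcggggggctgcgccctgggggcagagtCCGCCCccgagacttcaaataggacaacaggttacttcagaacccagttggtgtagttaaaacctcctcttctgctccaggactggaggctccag

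The Lsr window held 3 GC boxes, 1 ETS match and 1 TCF/LEF match, and those of F11r and Cldn5 held 1 GC box each, with no overlap between matches. The GC box was searched as GGGCGG, which 35.7% of 32851 promoter windows of this length held on either strand. The ETS motif, CGGAAG, was in 16.9% of them. The TCF/LEF motif, CTTTGA, was in 16.0%. The TATA box, TATAAA, was in 13.6%. The HNF4 motif, CAAAGTCCA, was in 0.475%, and in none of the 12 windows of these genes. The GC share was 67.3% for Lsr, 60.3% for F11r and 58.3% for Cldn5, against a median of 52.7% over all windows. Windows were found for 8 of the 9 genes, 12 windows in all, each with more than 7 CpG pairs, the median of all windows. The matches describe these letters alone.

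The series as a whole set the frame for these genes. Libraries held 11958137 to 16059196 reads. Neuron markers were present in every library, with summed normalized counts (reads divided by a library's size factor) of 121083 to 131100 for 10 genes. Day 3 replicate 2 stood apart through liver-made transcripts: all 20 hepatocyte and plasma protein genes were highest there, with a summed normalized count of 161872 against 11496 to 15830 in the others. Brain also makes some of these, Ttr and Trf among them. Day 3 replicates 1 and 2 were rich in cerebellar transcripts, with sums over 13 markers of 42731 and 41244 against 10991 to 17408. Day 3 replicate 1 was also highest in the mean log2 level of 24 endothelial markers, at 8.02 against 7.21 to 7.42 in the other 5. In bulk tissue, fewer cells of a type and less RNA per cell cannot be told apart.

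Between day 3 and day 28, 0 of the 9 genes passed the test (limma, adjusted p under 0.05), where 0.192% of all tested genes did. Before adjustment 2 of the 9, Lsr and F11r, had p under 0.05, against 13.4% of tested genes, and with voom on the recovered reads 0 were again called, with the unadjusted count also 2. The groups did not overlap for 1 of the 9, Lsr, against 18.9% of tested genes. Differences at day 28 were positive for 4 genes and negative for 5, with a median log2 difference of -0.24 beside -0.0091 for all tested genes. Leaving out both cerebellum-rich day 3 libraries, which left day 3 replicate 3 alone at that time, the median was 0.027. With the level of cerebellar markers as a covariate it was 0.094. In both settings its sign turned positive.

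**Figure D1:**
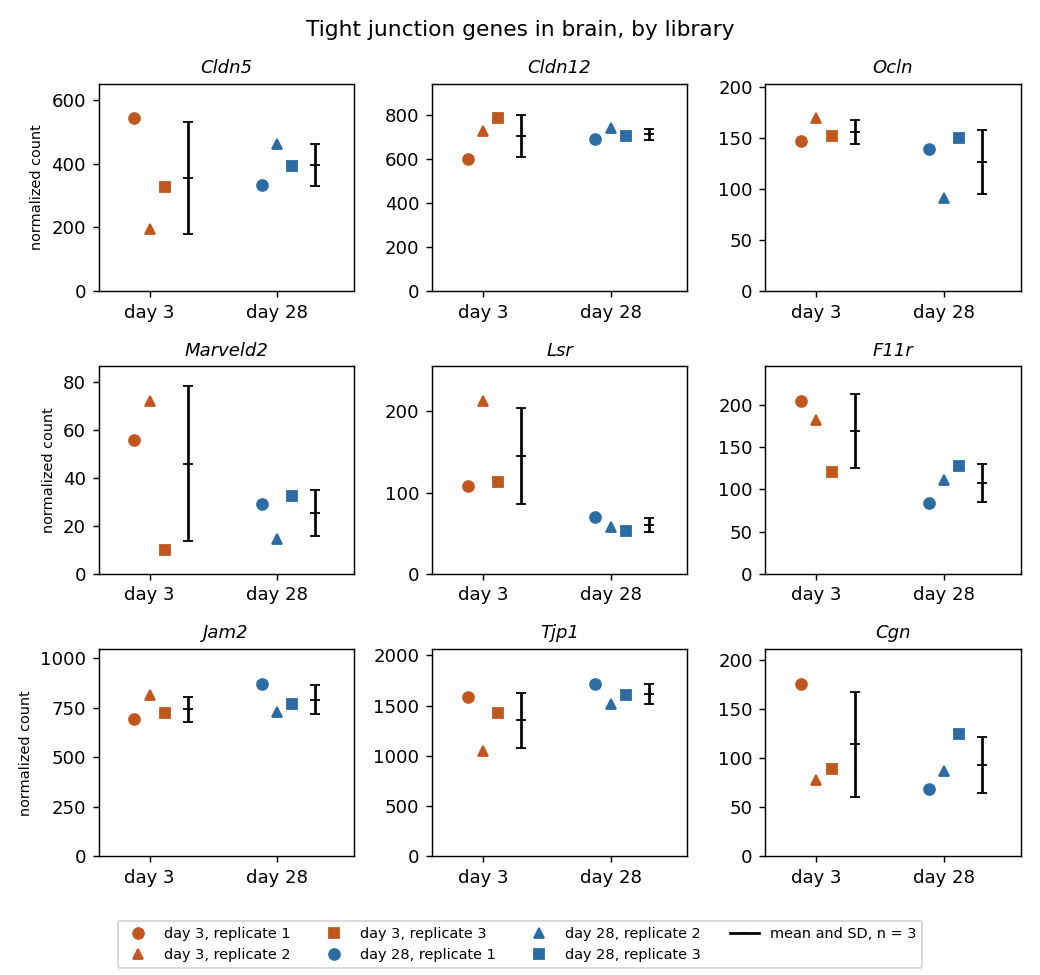
Normalized counts (vertical axes, each from 0) of the 9 genes in the 3 day 3 and 3 day 28 libraries, with the mean and SD of each group in black. Lsr is the panel in which all day 3 points, 108 to 213, lie above all day 28 points, 53.1 to 69.9.

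The angulin Lsr (ENSMUSG00000001247), which marks tricellular contacts and recruits tricellulin to them, had the largest difference of the 9. The 3 libraries of day 3 held normalized counts of 108, 213 and 113, and those of day 28 held 69.9, 57.1 and 53.1. Every day 3 library was above every day 28 library, and replicate 2, the library rich in liver transcripts, was the highest. The means were 145 ± 59.1 at day 3 and 60.0 ± 8.77 at day 28 (SD, n = 3 each), and the log2 difference was -1.19 (SE 0.30, 95% interval -1.87 to -0.51, limma adjusted p = 0.148). The difference did not pass the test. Without day 3 replicate 2 it was -0.88 (limma adjusted p = 0.367). These levels rested on 118, 207 and 93 reads at day 3 and 70, 64 and 56 reads at day 28.

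Junction genes did not move as a block in the liver-rich library. Alb, which encodes albumin, had 67650 normalized counts in day 3 replicate 2 and 21.1 to 1139 in the other 5. Lsr in replicate 2 was 1.88 times the highest other library. Of the 7 other claudin-family genes tested, 2 were highest there, beside 22.1% of all tested genes. Cldn2, a leaky-epithelium claudin of choroid plexus and liver, was 1.68 times the highest other library, at 69.9 against 23.1 to 41.7. Cldn3, an epithelial claudin, was 4.04 times, at 42.2 against 2.00 to 10.4, and reached the mean of 10 needed for testing only through this library. Cldn14, at 28.8 against 1.79 to 11.9, did not reach that mean. Other genes were not highest there. Cldn1, a claudin of liver and other epithelia, was 0.648 times the highest other library, at 30.8 against 47.6 in day 3 replicate 1. Cgn was 0.444 times, F11r 0.892 times and the epithelial cadherin Cdh1 0.786 times the highest other library, and Tjp1 was lowest there. The epithelial keratin Krt8 stood at 184 there against 0 to 15.2 elsewhere. Over all 14 epithelial markers the sum was 370 there against 29.2 to 59.7 elsewhere. The 2 tested were highest there, beside 22.1% of all tested genes. The value of 184 was by itself enough to give Krt8 the mean of 10 needed for testing, so that count partly reflects the filter. Day 3 replicates 1 and 3 held 21.1 and 477 normalized counts of Alb, and 108 and 113 of Lsr. Lsr at day 28 stood at 53.1 to 69.9. Cldn1, Cldn2, Cldn3, Cldn14, Cdh1 and Krt8 were named after their values were seen. The part of liver RNA in the Lsr level of replicate 2, or of any other library, was not tested.

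**Figure D2:**
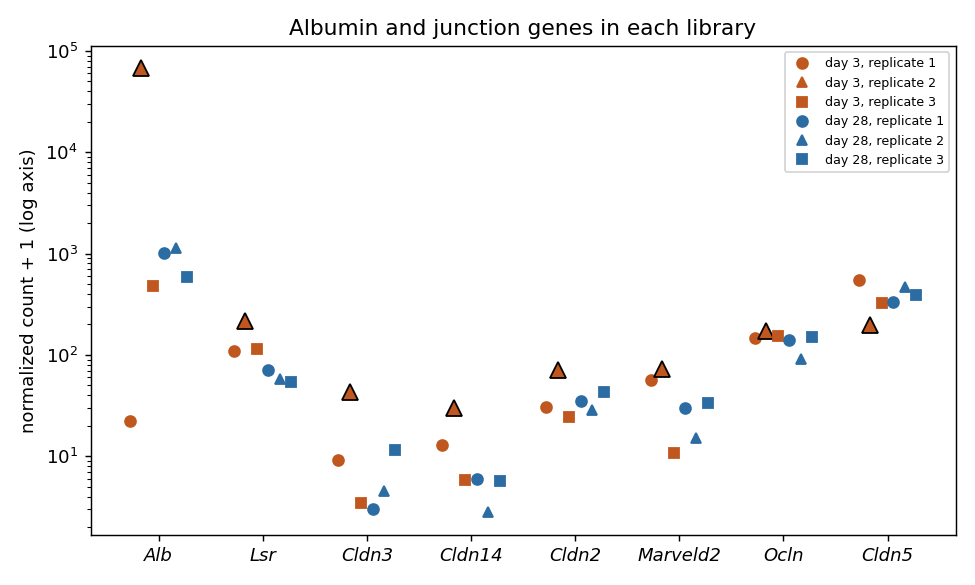
Normalized counts plus 1 (log axis) of Alb and 7 junction genes in each library, with the liver-rich day 3 replicate 2 as the large outlined triangle. That library is highest for Alb, Lsr, Cldn3, Cldn14, Cldn2, Marveld2 and Ocln, by 1.12-fold for Ocln, and lowest for Cldn5. The genes plotted were chosen after their values were seen.

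Of the 9 genes, 3 had their highest value in the liver-rich library (Lsr, Marveld2 and Ocln), against 22.1% of all tested genes. Another 2, Cldn5 and Tjp1, had their lowest value there, against 20.9%. Day 3 replicate 1, the library with most endothelial transcripts, was highest for 3 (Cldn5, F11r and Cgn), against 20.5%. The 9 genes thus did not share 1 pattern across libraries.

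Tricellulin, encoded by Marveld2 (ENSMUSG00000021636), is Lsr's partner at the points where 3 cells meet, and its values overlapped between the times. Normalized counts at day 3 were 55.9, 72.0 and 9.74, and day 28 gave 29.0, 14.3 and 32.2. Day 3 held both the highest and the lowest library. The rarest value rested on 8 reads (95% exact Poisson interval 3.45 to 15.8, counting error only) beside 61 and 70 in the other day 3 libraries, so the gap exceeded counting error. The log2 difference was -0.52 (SE 0.72, limma adjusted p = 0.804), and its 95% interval, -2.15 to 1.12, spanned both directions. Leaving out day 3 replicate 3 gave -1.38, and leaving out replicate 2 of that day gave 0.0039. Marveld2 was highest in the cerebellum-rich libraries. With both of them left out, day 3 was replicate 3 alone, the library of 8 reads, and the difference was 1.21. The cerebellar covariate gave a difference of 0.76. The part of regional make-up in it was not tested.

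Occludin (Ocln, ENSMUSG00000021638), the membrane protein that lends tight junctions stability, varied little at day 3. It stood at 147, 169.7 and 152 normalized counts in the day 3 libraries, and at 139.8, 91.1 and 149.8 in those of day 28. The groups overlapped, and 1 library, day 28 replicate 2, was low. The log2 difference was -0.33 (SE 0.22, limma adjusted p = 0.565), and without that library it was -0.11.

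Cldn5 (ENSMUSG00000041378), the main claudin of brain endothelium, varied more between the libraries of day 3 than between those of day 28. The day 3 libraries had 544, 194 and 326 normalized counts, whereas the day 28 libraries had 333, 464 and 392. All day 28 values lay inside the day 3 range. The means were 355 ± 177 and 397 ± 65.5 (SD, n = 3 each), and the log2 difference was 0.27 (SE 0.32, limma adjusted p = 0.762). The 95% interval ran from a fold of 0.726 to 2.01. Leaving out day 3 replicate 1 gave 0.64 and leaving out day 3 replicate 2 gave -0.10, so the positive sign rested on replicate 2 of that day. The highest Cldn5 value was in day 3 replicate 1, the library with the highest endothelial markers. The lowest was in day 3 replicate 2, whose endothelial marker level, 7.32, was close to those of day 28.

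Cldn12 (ENSMUSG00000046798), a claudin present in many tissues, was steady across all 6 libraries. Day 3 gave 599, 725 and 785 normalized counts, and day 28 gave 692, 739 and 702. The highest was 1.31 times the lowest, against 2.80 times for Cldn5. The log2 difference was 0.025 (SE 0.12, limma adjusted p = 0.954), with a 95% interval from a fold of 0.841 to 1.23.

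Neither of the adhesion molecules F11r and Jam2 passed the test. F11r (ENSMUSG00000038235), also called JAM-A, had day 3 normalized counts of 205, 183 and 120.5, and its day 28 values were 83.9, 112 and 128. Day 3 replicates 1 and 2, the cerebellum-rich libraries, were above all others, and replicate 3 lay within the day 28 range. The log2 difference was -0.63 (SE 0.26, 95% interval -1.22 to -0.050, unadjusted p = 0.0366, limma adjusted p = 0.332). It was -0.18 with both cerebellum-rich libraries left out, which left replicate 3 alone at day 3, and -0.24 with the cerebellar covariate. Set against endothelial markers, as described below, it was -0.31 (exact permutation p = 0.4, and 0.6 adjusted over the 9 genes). Replicate 1 was also highest in endothelial markers and replicate 2 in liver transcripts, so these features cannot be told apart here. The cause of the F11r difference was not tested. Jam2 (ENSMUSG00000053062), or JAM-B, had day 3 values of 693, 815 and 724, followed by 873, 730.4 and 769 in the day 28 libraries. These values overlapped, with a log2 difference of 0.086 (SE 0.11, 95% interval -0.17 to 0.34, limma adjusted p = 0.787), so the direction of Jam2 was not resolved. The difference between F11r and Jam2 in response was not tested.

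The plaque proteins showed no passing difference either. Tjp1 (ENSMUSG00000030516), the scaffold that links claudins to actin, had normalized counts of 1585, 1052 and 1429 in the day 3 libraries, with 1719, 1519 and 1603 in those of day 28. The groups overlapped through day 3 replicate 1 alone, and day 3 replicate 2 was lowest. The log2 difference was 0.27 (SE 0.15, limma adjusted p = 0.467), and 0.099 without day 3 replicate 2. Cgn (ENSMUSG00000068876), or cingulin, had day 3 normalized counts of 176, 78.1 and 88.8, and day 28 gave 68.9, 86.6 and 124. Its highest library, day 3 replicate 1, set the sign, as the log2 difference was -0.24 (SE 0.35, limma adjusted p = 0.814) and 0.12 without that library.

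**Figure D3:**
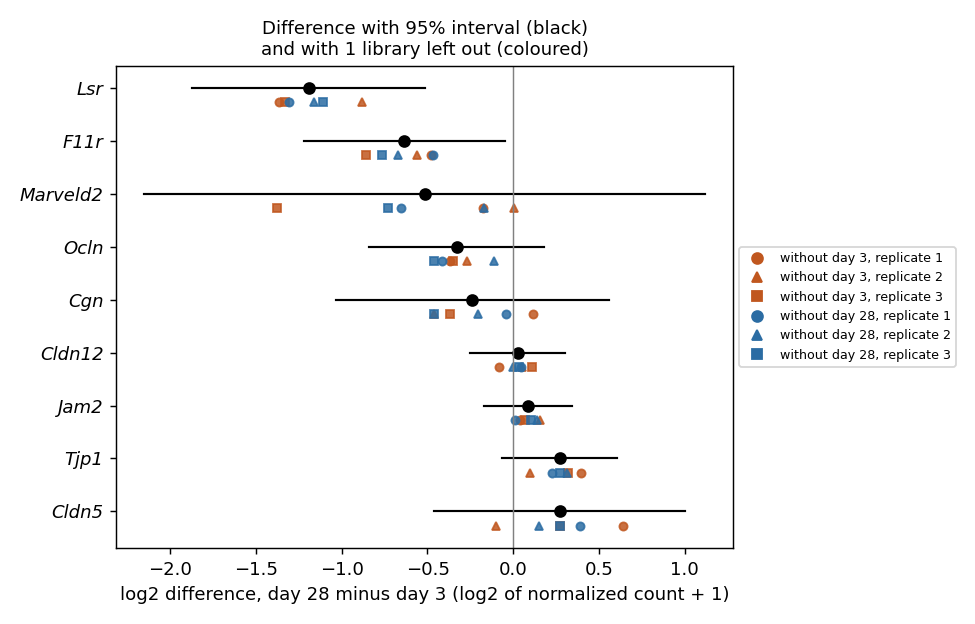
Log2 difference of each gene, day 28 minus day 3, with its 95% interval in black and, just below in colour, the value after 1 library is left out. The intervals of Lsr and F11r lie below 0 before adjustment over all genes, and the points of Cldn5, Cldn12, Cgn and Marveld2 fall on both sides of 0.

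Levels were compared between genes per kilobase of merged exons. In medians over the 6 libraries the order of normalized count per kilobase was Cldn5 at 256, Tjp1 at 199, Cldn12 at 169, Jam2 at 124, F11r at 46.6, Lsr at 41.0, Ocln at 35.2, Cgn at 14.6 and Marveld2 at 9.04. The ranges of neighbours overlapped everywhere except between Jam2 and F11r, where the lowest Jam2 value, 115, was above the highest F11r value, 77.0. The members thus fell into 4 genes above that gap and 5 below it. Among other claudin-family genes Cldn11, the claudin of myelin, had a median of 1180 per kilobase (range 832 to 1626), above all 9. Cldn10, another widely made claudin, stood at 186, and its range of 158 to 203 overlapped that of Cldn12. Cldn1, Cldn2 and Cldn3, found in choroid plexus and other epithelia, stood at 6.32, 9.51 and 4.69.

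**Figure D4:**
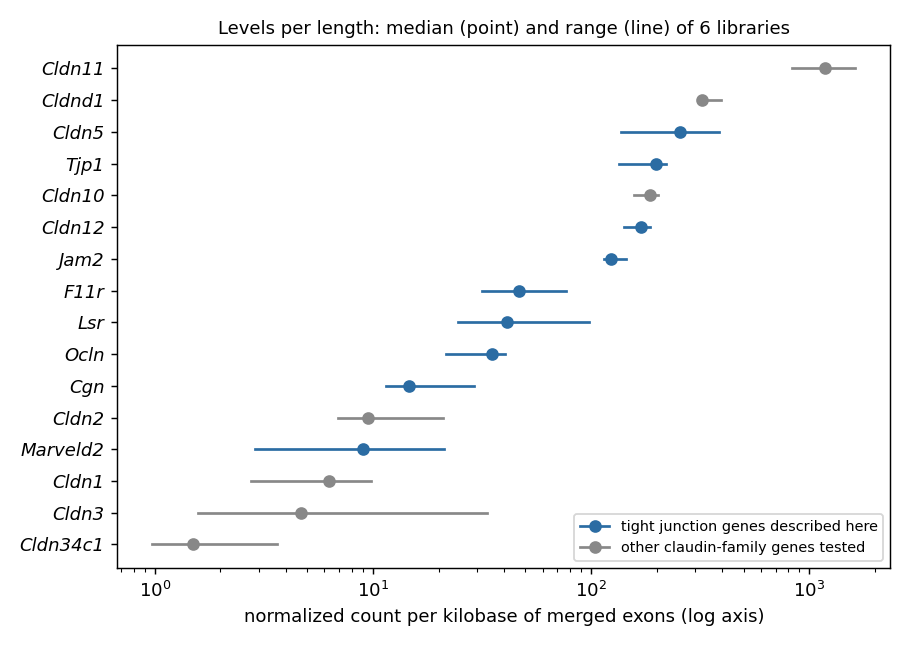
Normalized count per kilobase of merged exons (log axis), with the point as the median and the line as the range of 6 libraries, for the 9 genes (blue) and the 7 other claudin-family genes tested (grey). Cldn5, Tjp1, Cldn12 and Jam2 lie above the other 5 members, and Cldn11 lies above all.

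The genes were also set against the endothelial markers of the same library, as the log2 value of the gene minus the mean log2 value of the 24 markers. On this scale the day 3 values of Cldn5 were 1.08, 0.29 and 0.94, and its day 28 values were 1.18, 1.54 and 1.36. All 3 day 28 libraries were above day 3, by 0.59 in the mean (exact two-sided permutation p = 0.1, the smallest that 3 against 3 libraries allow, and 0.3 adjusted over the 9 genes). Without day 3 replicate 2 the Cldn5 difference was 0.36. Tjp1 was likewise higher in every day 28 library, by 0.59, and Cldn12 by 0.35 (for both, exact permutation p = 0.1 and 0.3 adjusted over the 9 genes). For Cldn12 the gap was minimal, with 2.20094 the highest day 3 value and 2.20135 the lowest of day 28, and without day 3 replicate 1 the difference was 0.020. The groups therefore did not overlap for 3 of 9 genes, beside 27.2% of the genes tested, so the share is near the background. Lsr was 0.87 lower at day 28 on average (exact permutation p = 0.2), with overlapping groups, and 0.42 lower without day 3 replicate 2. With Cdh5, the endothelial cadherin, as the sole reference, the difference of Cldn5 was 0.31 and that of Tjp1 0.31 (exact permutation p = 0.4 for both). The markers themselves were lower on average at day 28. Their mean log2 level was 8.02, 7.32 and 7.42 at day 3, and 7.21, 7.32 and 7.26 at day 28. Not set against the markers, the differences were 0.27 for Cldn5, 0.27 for Tjp1 and 0.025 for Cldn12. Part of the relative differences of Cldn5 and Tjp1, and most of that of Cldn12, therefore came from the markers. Many of these genes are made outside endothelium too, so the scale does not give a level per endothelial cell.

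**Figure D5:**
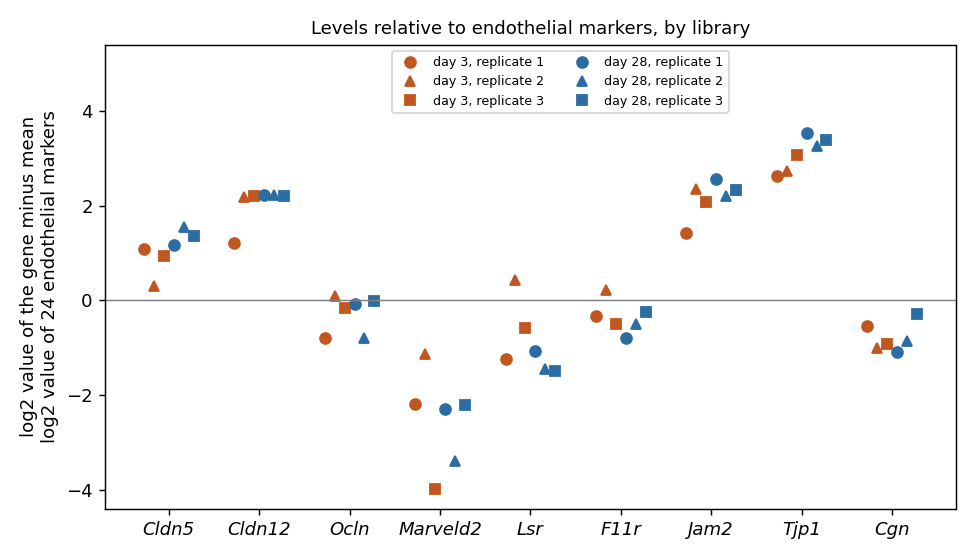
Log2 value of each gene minus the mean log2 value of 24 endothelial markers in the same library (vertical axis), with 1 point for each of the 6 libraries. For Cldn5, Cldn12 and Tjp1 all day 28 points lie above all day 3 points, by 0.59, 0.35 and 0.59 in the mean. The markers themselves were lower on average at day 28.

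In the wider junction machinery, 0 genes passed in either direction in each of 4 lists: 7 tested of 21 other claudin-family genes in the table, 7 of 10 other junction membrane proteins, 26 of 26 scaffold and polarity proteins and 11 of 12 adherens junction genes. Only 0.192% of all tested genes passed, so 0 calls in lists this short says little. The median log2 differences of the lists were -0.092, -0.18, 0.020 and -0.036, against -0.0091 over all tested genes. Before adjustment, p was under 0.05 for 1 of 7, 2 of 7, 9 of 26 and 2 of 11 genes, beside 13.4% of all tested genes. Groups did not overlap for 2 of 7, 2 of 7, 8 of 26 and 3 of 11, beside 18.9%. Another 3 claudins, Cldn4, Cldn8 and Cldn17, had 0 reads in every library.

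Among these lists, the genes of smallest p included relatives and partners of the members. Ildr2, another angulin and so a relative of Lsr, had day 3 normalized counts of 1913, 1731 and 2311, and those of day 28 were 2711, 2848 and 2858. It was higher in every day 28 library, opposite to Lsr (log2 difference 0.51, SE 0.11, limma adjusted p = 0.117). Cxadr, an adhesion molecule related to the JAM proteins, had a log2 difference of 0.74 (SE 0.18, limma adjusted p = 0.14), with 230 to 337 normalized counts at day 3 and 401 to 560 at day 28. Patj, a polarity scaffold, had a log2 difference of -1.24 (SE 0.36, limma adjusted p = 0.19). Its values of 1223 and 1067 in the cerebellum-rich day 3 replicates stood above 507 in the third and 236 to 481 at day 28. Cldn11 had 2440 to 3040 normalized counts at day 3 and 1555 to 1972 at day 28 (log2 difference -0.67, SE 0.12, limma adjusted p = 0.0752). None of the 4 passed. Their groups did not overlap, which choosing them for a small p makes likely. Arhgef2 (log2 difference 0.38), Nectin3 (0.49), Ctnna1 (-0.24) and Cldnd1 (-0.19) did not pass either.

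The endothelial list, which carries the cell type of the barrier, had 0 of 24 genes past the threshold, a median log2 difference of -0.15 and 5 genes with p under 0.05 before adjustment, beside 13.4% of all tested genes. Sox18, an endothelial transcription factor, had 153, 84.3 and 170.4 normalized counts in the day 3 libraries, and 18.0, 35.7 and 19.0 in the later ones. These did not overlap, and the difference lay just outside the threshold (log2 difference -2.45, SE 0.39, limma adjusted p = 0.0548). Ramp2, a receptor partner of vascular endothelium, had a log2 difference of -1.07 (limma adjusted p = 0.104). Sox18 and Ramp2 were named for their small p, which makes groups without overlap likely. Of the 24 endothelial genes, 15 were lower and 9 higher at day 28. Groups did not overlap for 6 of the 24, beside 18.9% of all tested genes. The 23 tested genes of the Wnt and Sox pathways that induce the barrier had a median of 0.018 with 0 past the threshold. Of 12 tested genes of transcytosis and leak, 0 passed and the median was -0.26. Since 0.192% of all tested genes passed, 0 calls in the endothelial, Wnt and Sox, and transcytosis lists says little. Mfsd2a, a lipid transporter that restrains transcytosis, had a log2 difference of -1.04 (limma adjusted p = 0.102), and Plvap, a protein of leaky vessels, of -0.41 (limma adjusted p = 0.343).

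Markers of other cell types that make junction genes were also counted. Pericyte, choroid plexus, ependymal and epithelial lists had 0 of 10, 11, 8 and 2 tested genes past the threshold, which 0.192% of all tested genes passed. Their medians were 0.19, -0.26, 0.21 and 0.0050. Of the epithelial markers, Elf3 and Cldn4 had 0 reads in every library. Pituitary, myelin, microglia, neuron, cerebellar, blood cell and liver lists had 0 genes past the threshold. In that order their medians were 1.79, -0.45, -0.13, -0.037, -2.35, -0.98 and -0.68. Before adjustment, p was under 0.05 for 0 of 3, 9 of 12, 3 of 10, 5 of 10, 6 of 13, 5 of 7 and 0 of 20, beside 13.4% of all tested genes. The myelin list, which includes Cldn11, had 11 genes lower and 1 higher at day 28, and the cerebellar list 13 lower and 0 higher. The astrocyte and fibroblast lists had 1 lower gene each past the threshold, Aldoc (log2 difference -0.68) and Dcn (log2 difference -1.81). The sum over 12 choroid plexus markers was highest in day 3 replicate 2, at 15309 normalized counts against 7163 to 12123, most of it Ttr, which liver also makes.

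The genes most like Cldn5 over the 6 libraries, by Pearson correlation of log2 values among 12614 genes with a mean of at least 50 normalized counts, included Zfp78 (r = 0.991), Slc25a27 (0.976), Kif1b (0.976) and Nup98 (0.975). None of these is on the endothelial list. Those most like Lsr were Clic4 (r = 0.998), Sdc4 (0.990), Sdf2l1 (0.990), Cwc15 (0.990) and Mt2 (0.989). Sdc4, a syndecan, followed Lsr with day 3 normalized counts of 1133, 1938 and 1262, and later values of 774, 738 and 738, highest in the liver-rich library. With 6 points that share libraries and so many genes searched, these values only describe likeness.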

How the data were processed

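Polyadenylated RNA from brain was sequenced in 6 libraries, and per the labels' protocols the libraries were stranded and made from 1 µg of RNA. The deposited table holds log2 values, 1 column a library. The build was GRCm39 per the submitters' processing notes, while no aligner, counter, annotation or scaling tool is named (not given in the sources used here). After removal of the log2 and of the added 1, 100% of values were whole multiples of 1 step a library, within 0.001 reads, so the deposited log2 values are log2(count divided by a size factor, plus 1). Symbols came from GENCODE M21 and matched 52073 of 56748 identifiers.

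The fit ran over the whole table for genes whose mean normalized count reached 10, with limma 3.58.1 in R 4.3.3 (intensity trend, group as the only term, 4 residual degrees of freedom), with Benjamini-Hochberg adjustment over all 16162 genes at 0.05. Tests were two-sided. Differences are in log2(value + 1), so those of genes with few reads are understated. Merged exon lengths came from GENCODE M21, which is on an older build than the files, so lengths are approximate, and the promoters carry the older build's coordinates. The fit was also run on simulated counts drawn independently for each gene. Those counts held no differences in tissue make-up between libraries, so that run says nothing about such differences.

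Members and lists were chosen with earlier results of these data known. Genes named were the 9 members, up to 2 of smallest p per list, those past the threshold, Alb and the 5 genes most like Cldn5 and Lsr, of which 1 is not reported here. Further genes named, among them Cldn1, Cldn2, Cldn3, Cldn10, Cldn14, Cdh1 and Krt8, were chosen after their values were seen. Alternatives covered pseudocount, filter, scaling, variance model, library weights, voom, a replicate block, the threshold and leaving out each library. The cerebellar covariate and the removal of both cerebellum-rich libraries were added after seeing the data. The removal left replicate 3 as the only day 3 library. Figures used matplotlib 3.10.9.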

Additional observations from a re-analysis of the deposited data

How the results depend on the processing

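Under all 20 alternatives 0 of the 9 genes passed, which with so few calls says little about stability. Lsr, F11r and Ocln stayed lower and Tjp1 and Jam2 higher at day 28 in each of their 20 alternatives, and the limma adjusted p of Lsr ran from 0.0767 to 0.611. A changed filter, trend, prior or threshold and the replicate block leave a gene's log2 difference as it was. These settings could not change a sign. Signs changed for 4 genes. Cldn12 was -0.014 with library weights, -0.14 with both cerebellum-rich libraries left out and -0.091 with the cerebellar covariate, and Cgn was 0.027 and 0.12 and Marveld2 1.21 and 0.76 under the last pair. Leaving out 1 library, Cldn12 ran from -0.085 to 0.11, Cgn from -0.46 to 0.12, Cldn5 from -0.10 to 0.64 and Marveld2 from -1.38 to 0.0039. The members' median had a lowest value of -0.46, when day 28 replicate 3 was left out, and a highest of -0.044, and was 0.027 with both cerebellum-rich libraries left out and 0.094 with the covariate. Marveld2 could not be tested with a filter of 50. The cause of these shifts was not tested.

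The number of genes called, 31, was 68 with no filter, 3 with no trend, 74 with a robust prior, 69 with library weights, 0 with voom, 76 with both cerebellum-rich libraries left out, 2 with the covariate and 152 at a threshold of 0.10. It ran from 1 to 618 with 1 library left out. In the lists, other claudins had 1 call with a robust prior, with library weights, at 0.10 and with both libraries left out, the endothelial markers 1 under these and with no filter, and the scaffolds 1 with both left out. With 1 library left out the counts ran from 0 to 1 for claudins, 0 to 2 for other membrane proteins, 0 to 3 for scaffolds and 0 to 2 for endothelial markers.

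With the replicate number as a block, 0 genes were called and 0 members. Same-numbered libraries had deviations correlated at 0.034, 0.13 and -0.062, and not every library correlated best with its own number. With 3 libraries a group, these values cannot show whether the numbers pair the libraries. Depth limits Marveld2 most, with 8 to 70 reads a library.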
